A study of Rattus norvegicus with 132 samples.

Results

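Klf4, Klf6, Klf9 and Klf15 encode 4 members of the Krüppel-like factor (KLF) family of transcription factors, and their RNA was followed across 4 groups of rats and 4 areas of the kidney. The 4 genes were taken by name from a table of 9271 genes, and all 4 passed the filter on low values. Expression was measured by spatial transcriptomics of formalin-fixed, paraffin-embedded rat kidney sections with the GeoMx digital spatial profiler, which frees the barcodes of hybridised probes with light, one region of interest (ROI) at a time, and sequences them. ROIs were picked by hand in 4 areas (cortex, corticomedullary junction, glomeruli and medulla), and the probes were those of the mouse whole transcriptome, hybridised here to rat tissue. RM, HS and RM-HS rats were compared with Sham rats, 3 rats per group. RM and HS are not spelled out in the labels; in work on kidney injury after trauma, RM is commonly read as rhabdomyolysis (muscle breakdown) and HS as hemorrhagic shock. Strain, age, sex and the time after injury are not given in the sources used here. ROI numbers for RM were 9 (cortex), 8 (junction), 9 (glomeruli) and 9 (medulla). HS had 9, 9, 5 and 6 in the same order of areas, RM-HS had 9, 8, 6 and 9, and Sham had 9 in each area.

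Krüppel-like factors are zinc finger proteins that bind GC-rich and CACCC-type sequences in promoters and act as activators or repressors. Klf6 is known as an injury-response gene whose RNA rises early after tissue damage, and in mice it has been tied to the breakdown of branched-chain amino acids in the proximal tubule. Klf4 is known from epithelial barriers, endothelium and, in mice, podocytes, while Klf9 and Klf15 are targets of the glucocorticoid receptor in several tissues. Klf9 also takes part in the circadian clock, and Klf15 is known for the control of gluconeogenesis and amino acid breakdown in liver and muscle of mice.

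The deposited values are signal that the authors normalized to the upper quartile, so that the 75th percentile of each of the 132 ROIs was 58.2. A value is therefore a level relative to the other genes of the same ROI, and fewer cells of a type and less RNA per cell cannot be told apart. Reads per ROI were taken as the smallest whole numbers that fit the steps of the values. Whole reads could not be verified in most ROIs, so all read numbers in this text are estimates. Reads per ROI ranged from 17894 to 2305964 with a median of 938179, and were lowest in glomeruli, where a gene's value rested on 1 to 25 reads for Klf4, 2 to 63 for Klf6, 1 to 12 for Klf9 and 1 to 21 for Klf15. The ROIs lay in 12 runs of consecutive wells, 3 per group, numbered here by their order. Whether a run is an animal is not stated, and the labels tie no ROI to an animal, so ROIs of a group share animals and every p-value over ROIs in this text is too small. All 29 HS ROIs were on plate E beside 12 Sham ROIs of Sham run 3, whereas RM (34), RM-HS (32) and the other Sham ROIs (24) were on plate C. A single RM glomerular ROI on plate A was left out of the fit and of the values below; its signal was 58.2 for Klf4, 155 for Klf6, 6.46 for Klf9 and 51.7 for Klf15. HS run 3 had no medulla ROI and stood apart from the other HS runs: its summed proximal tubule marker signal averaged 7292 at the junction, against 3099 in HS run 1 and 2857 in HS run 2. As a check of the area labels in Sham, 6 of 7 podocyte markers were higher and 1 lower in glomeruli than in cortex, and 5 of 6 loop of Henle markers were higher in medulla than in cortex. Of all genes 2.78% were called higher and 35.6% lower in glomeruli, and 6.39% higher in medulla. Against the negative probe of the same ROI, a measure of background, Klf6 was over 2 times it in 129 of 132 ROIs, Klf4 in 95, Klf15 in 78 and Klf9 in 17. These Klf9 ROIs numbered 4, 3, 3 and 2 in HS cortex, junction, glomeruli and medulla. RM-HS had 0, 1, 2 and 0 in that order, RM 0, 0, 1 and 0, and Sham 0, 0, 0 and 1. Klf9 therefore passed the filter on low values, set at 10% of ROIs, mostly through HS, where its tests are not independent of the filter.

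Sequence near the start sites of Klf6 and Klf15 is given because these genes moved in opposite directions at the junction in RM and in RM-HS rats. It comes from the RefSeq promoter table of the rat (build GRCr8), which matched all 4 genes by symbol and holds 300 bases for each of 33469 start sites. Positions below are counted from the start site of that table. The windows of Klf6 and Klf9 begin before the annotated gene, while those of Klf4 and Klf15 lie wholly inside it, since the annotated gene of each reaches further upstream than the start site used. Klf6 is shown for 250 bases before its start, chr17:69458479-69458728 on the minus strand, and Klf15 for 30 bases around its match, chr4:124522902-124522931 on the plus strand. Capitals mark CACGTG, the E-box bound by clock factors, in both, and GGGCGG, the GC box, in Klf6.

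Klf6: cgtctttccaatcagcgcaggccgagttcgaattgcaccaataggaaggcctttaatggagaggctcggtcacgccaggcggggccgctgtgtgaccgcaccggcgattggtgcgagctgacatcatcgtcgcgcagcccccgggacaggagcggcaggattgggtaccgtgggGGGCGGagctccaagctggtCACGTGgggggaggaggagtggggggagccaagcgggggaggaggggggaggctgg

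Klf15: cgcccgcggcgtCACGTGagcggtcggaga

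CACGTG begins 56 bases before the start of Klf6 and 101 bases before that of Klf15, where it lies inside the annotated gene, and is found in 6.42% of all promoters of this table. GGGCGG begins 76 bases before the start of Klf6 and is found in 33.1%. Both strands were searched, and the marked matches do not overlap. Neither 300-base window held AGAACA (a half-site of the glucocorticoid receptor, 20.7% of promoters), TGANTCA (the AP-1 site with any middle base in place of C or G, 7.33%) or TGACGTCA (the cyclic AMP response element, 1.83%). Klf9 held TGANTCA 122 bases before its start, as TGAATCA, which is not an AP-1 site since its middle base is A. Klf4 held TATAAA (14.2% of promoters) on the minus strand 146 and 78 bases before its start site in the table, inside the annotated gene. These matches describe letters and not binding.

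Differences were tested with limma over all 8827 genes kept, with Benjamini-Hochberg adjustment, and called at an adjusted p of 0.05 (two-sided). Averaged over the 4 areas, 2 of the 4 KLF genes were called in RM against Sham (Klf6 higher, Klf15 lower), where 8.3% of all genes were called. None of the 4 was called in HS against Sham, where limma called 0.17% of all genes. At an unadjusted p under 0.05 in limma were 2 of the 4 and 472 of the 8827 genes. In RM-HS against Sham, 3 of the 4 were called (Klf6 and Klf9 higher, Klf15 lower), with 6.83% of all genes called. By area, RM called 2 of the 4 at the junction (5.64% of all genes), 2 in medulla (5.96%), 1 in cortex (5.49%) and 1 in glomeruli (12.8%). RM-HS called 3 at the junction (6.15%), 1 in medulla (4.5%), 1 in cortex (3.78%) and 0 in glomeruli (6.62%). In RM-HS glomeruli 2 of the 4 and 1827 of the 8827 genes had an unadjusted p under 0.05 in limma. HS called 0 of the 4 in each area, and limma called 9.52% of all genes in glomeruli, 0.374% in medulla, 0.283% at the junction and 0.0793% in cortex. In that order of areas, 0, 2, 0 and 1 of the 4 genes had an unadjusted p under 0.05 in limma. Of the 8827 genes 2141, 590, 352 and 335 did.

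**Figure D1:**
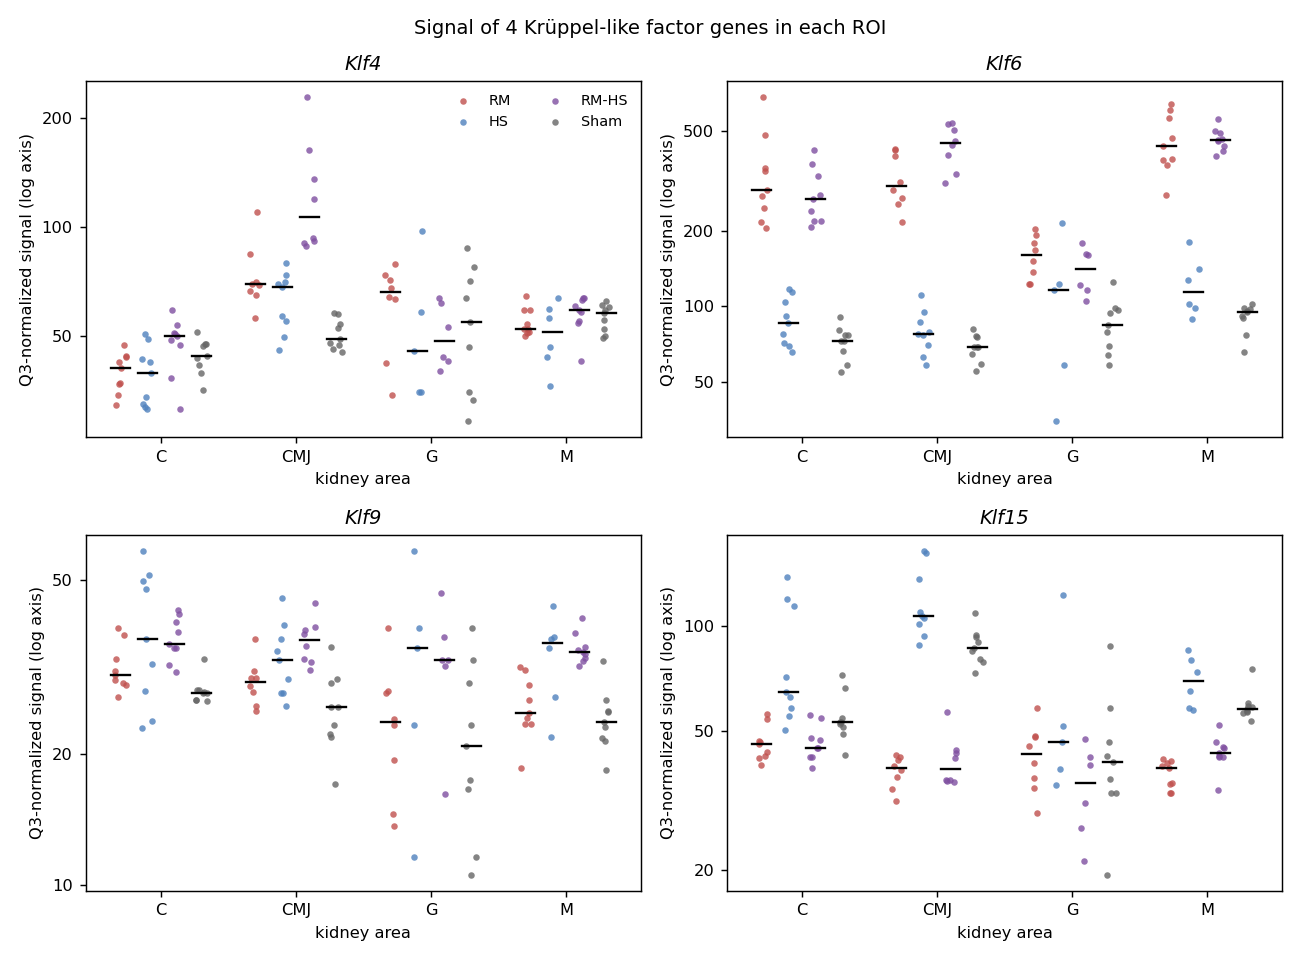
Signal of the 4 genes in each ROI (points, log axis; upper-quartile-normalized signal) by area and group, with groups in the order RM, HS, RM-HS and Sham and a bar at each median. Klf6 separates RM and RM-HS from Sham in cortex, junction and medulla, and Klf15 lies lower in RM and RM-HS at the junction, with medians of 39.1 and 39.0 against 86.4 in Sham.

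Klf6 rose in RM and in RM-HS kidneys in nearly every area. In cortex its signal (lowest, median and highest ROI) was 206, 292 and 684 in RM, 65.8, 85.9 and 117 in HS and 207, 268 and 422 in RM-HS, against 54.6, 73.0 and 90.6 in Sham. At the junction it was 218, 302 and 424 in RM, 58.2, 77.9 and 111 in HS and 309.9, 449 and 539.9 in RM-HS, against 55.0, 68.5 and 81.3 in Sham. Every RM and RM-HS ROI of these areas lay above every Sham ROI, while HS overlapped Sham. In medulla Klf6 reached 279.6, 436 and 644 in RM, 89.2, 114 and 180.5 in HS and 400.2, 462 and 562 in RM-HS, against 65.8, 95.3 and 102 in Sham. RM and RM-HS medulla again lay wholly above Sham, and HS overlapped it. The share of all genes whose ROIs lay wholly above Sham in cortex, junction and medulla was 2.06%, 5.09% and 4.66% for RM, and 1.11%, 4.64% and 4.01% for RM-HS.

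In glomeruli the separation was smaller. Klf6 signal there was 123, 159.7 and 204 in RM and 105, 141 and 178 in RM-HS, against 58.2, 84.6 and 125 in Sham. The HS glomeruli had 34.9, 58.2, 116, 123 and 215. RM and RM-HS glomeruli overlapped the upper Sham values, RM narrowly, and HS glomeruli spread from below the lowest to above the highest Sham value.

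As log2 fold changes ± SE in limma, Klf6 rose in RM by 2.21 ± 0.20 in medulla, 2.11 ± 0.20 at the junction, 2.07 ± 0.20 in cortex and 0.82 ± 0.20 in glomeruli. The average over areas was 1.80 ± 0.15 (3.48-fold, adjusted p = 1.10e-20), the 8th lowest p of all genes, with 34 of 34 RM ROIs above the Sham mean for their area. RM-HS gave 2.56 ± 0.20 at the junction (5.88-fold), 2.27 ± 0.20 in medulla and 1.84 ± 0.20 in cortex, and the average was 1.81 ± 0.15 (adjusted p = 1.54e-20; 32 of 32 ROIs above the Sham mean). In RM-HS glomeruli the difference of 0.59 ± 0.22 did not pass (adjusted p = 0.0794), but did without HS run 3 (0.61, adjusted p = 0.0120), with quantile normalization (0.69), with no plate term (0.68), without the block of runs (0.63) and on plate C alone (0.60). HS differed from Sham by 0.45 ± 0.19 on average (95% interval 0.08 to 0.83, adjusted p = 0.79; 21 of 29 ROIs above the Sham mean), and no area passed, although medulla did with quantile normalization (0.83, adjusted p = 0.0141). The rise differed between areas in RM (F test, adjusted p = 3.71e-07) and in RM-HS (adjusted p = 1.26e-10), where 9.72% and 7.51% of all genes did; in HS it was not called (adjusted p = 0.724; 13.6% of genes). The glomerular call in RM (adjusted p = 0.00262) ended without Sham run 2 (0.70, adjusted p = 0.0567), with glomeruli fitted alone (0.81, adjusted p = 0.129) and over means of runs (0.80, adjusted p = 0.186). Over means of runs the F test in RM did not pass either (adjusted p = 0.113).

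Runs of one group differed in the size of the rise. Klf6 averaged 306, 509 and 223 in cortex of RM runs 1 to 3 and 396, 379 and 605 in medulla of the same runs. RM-HS runs averaged 215, 263 and 375 in cortex, against 75.5, 76.6 and 64.3 in Sham runs. The lowest of these injured run means was over the highest Sham run mean of the same area. Of 15 neighbouring pairs in the order of the 16 group and area means, only RM-HS cortex over RM glomeruli were apart by more than their pooled SD. RM-HS medulla stood at the top, followed by RM medulla (460.0 ± 122, SD, n = 9) and RM-HS junction (441 ± 86.9, n = 8), and Sham junction at the bottom (68.5 ± 8.31, n = 9).

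Markers of other cell types moved in some of the same areas. Of 6 loop of Henle markers, 3 fell at the junction and 4 in medulla of RM, and 3 at the junction and 2 in medulla of RM-HS. Of all genes 0.782% and 1.12% were called lower there in RM, and 0.997% and 0.906% in RM-HS. The summed signal of the loop of Henle markers in medulla had medians of 901 in RM, 1488 in HS and 1391 in RM-HS, against 2640 in Sham. Of 5 macrophage markers 3 rose in RM-HS medulla, where 3.59% of all genes were called higher. None of 7 proximal tubule markers was called at the junction in RM or RM-HS, where 5.64% and 6.15% of all genes were. The part of these markers in the Klf6 and Klf15 results was not tested.

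**Figure D2:**
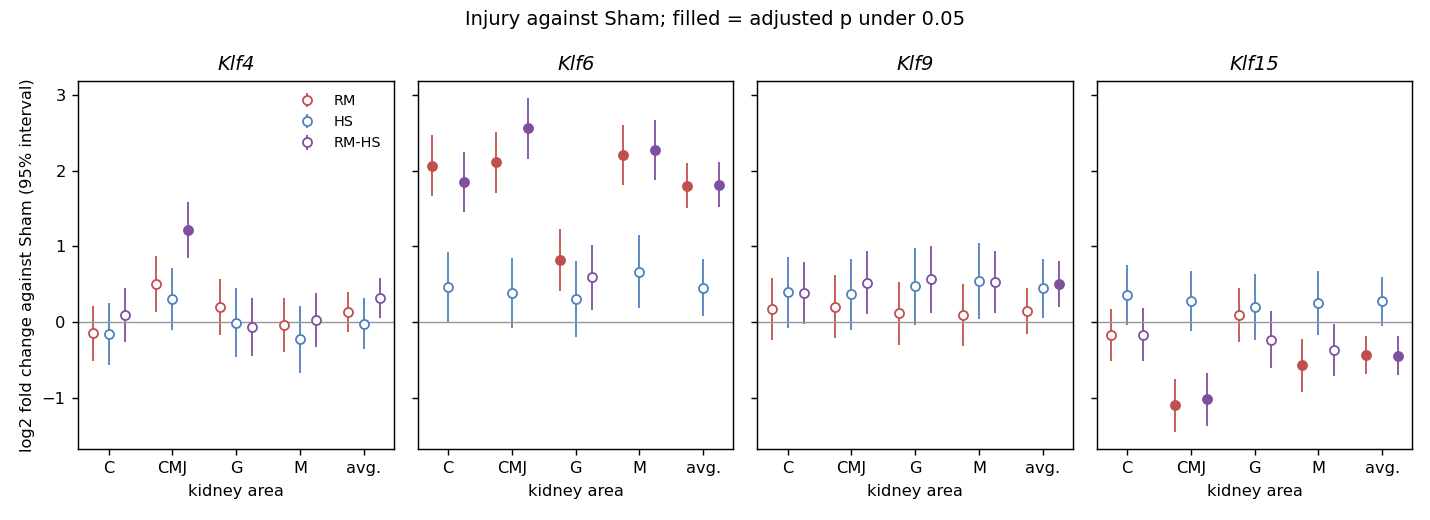
Log2 fold change of each gene against Sham with its 95% interval, by area and as the average over areas, for RM, HS and RM-HS; filled symbols passed an adjusted p of 0.05 in limma. Klf6 lies above 0 in RM and RM-HS, with averages of 1.80 and 1.81, and Klf15 below 0 at the junction, at -1.10 in RM and -1.02 in RM-HS.

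Klf15 fell at the junction of RM and RM-HS kidneys, the area in which it was highest in Sham. Its junction signal was 31.5, 39.1 and 42.7 (lowest, median, highest) in RM, 88.0, 107 and 164 in HS and 35.6, 39.0 and 56.5 in RM-HS, against 73.2, 86.4 and 109 in Sham. Every RM and RM-HS ROI lay below every Sham ROI, and HS overlapped Sham at its upper end. The Sham mean at the junction was 3.89 times the negative probe, with 9 of 9 ROIs over 2 times it. RM (1.76 times, 1 of 8 ROIs) and RM-HS (1.86 times, 2 of 8) lay near background. In medulla the signal was 33.1, 39.3 and 41.5 in RM, 57.4, 69.4 and 85.1 in HS and 34.0, 43.3 and 51.9 in RM-HS, against 53.4, 57.6 and 75.4 in Sham. RM and RM-HS again lay wholly below Sham there. All genes wholly below Sham made up 1.64% at the junction and 1.56% in medulla for RM, and 1.54% and 1.59% for RM-HS.

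Cortex and glomeruli showed overlap in each injury. Cortical Klf15 was 39.8, 45.7 and 56.0 in RM, 50.2, 64.4 and 138 in HS and 39.0, 44.7 and 55.4 in RM-HS, against 42.8, 52.9 and 72.1 in Sham. Sham cortex averaged only 2.16 times the negative probe, with 2 of 9 ROIs over 2 times it. A fall there had little room to show, which limits comparisons of the Klf15 change between areas. Glomerular signal was 29.1, 42.8 and 58.2 in RM and 21.1, 35.5 and 47.3 in RM-HS, against 19.4, 40.7 and 87.2 in Sham. In HS glomeruli the values were 34.9, 38.8, 46.5, 51.7 and 122, of which 1 lay above all Sham glomeruli.

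By limma, Klf15 fell by 1.10 ± 0.18 on the log2 scale at the junction of RM (adjusted p = 6.67e-07) and by 1.02 ± 0.18 at that of RM-HS (adjusted p = 4.05e-06). These calls stood under all alternatives run. The average over areas fell by 0.44 ± 0.13 in RM (adjusted p = 0.0133; 5 of 34 ROIs above the Sham mean) and by 0.45 ± 0.13 in RM-HS (adjusted p = 0.0140; 4 of 32 ROIs). Some calls were lost with a run left out while the values stayed close: RM was -0.41 without RM run 1 (adjusted p = 0.0862), -0.45 without Sham run 1 (adjusted p = 0.218) and -0.43 without Sham run 2 (adjusted p = 0.143). RM-HS was -0.44 without RM-HS run 1 (adjusted p = 0.0513), -0.41 without RM-HS run 2 (adjusted p = 0.1), -0.46 without Sham run 1 (adjusted p = 0.259) and -0.44 without Sham run 2 (adjusted p = 0.151). In medulla RM fell by 0.58 ± 0.17 (adjusted p = 0.0244), and the value was -0.52, -0.57, -0.56 and -0.50 without RM run 2, RM run 3, Sham run 1 and Sham run 2, where the call was lost (adjusted p = 0.105 to 0.296). It was also lost with scaling to the negative probe (-0.58, adjusted p = 0.135) and over means of runs (-0.58, adjusted p = 0.286). RM-HS medulla differed from Sham by -0.38 ± 0.17 (adjusted p = 0.363), and was called with quantile normalization (-0.45), on plate C alone (-0.47) and with medulla fitted alone (-0.47). Cortex differed by -0.17 in RM and -0.17 in RM-HS, and glomeruli by 0.09 in RM and -0.23 in RM-HS, none of them called. The change differed between areas in RM (F test, adjusted p = 6.57e-06) and in RM-HS (adjusted p = 0.00311), the second no longer called without RM-HS run 3 (adjusted p = 0.139), with scaling to the negative probe (adjusted p = 0.0851) or over means of runs (adjusted p = 0.267).

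Klf15 lay above the Sham mean of the area in 24 of 29 HS ROIs. That mean pools both plates, as it does for the HS counts of Klf6 and Klf9, whereas all HS ROIs lay on plate E. Sham run 3, the Sham run of plate E, averaged 64.4 in cortex, against 48.2 and 52.1 in Sham runs 1 and 2. In the same order the values were 97.4, 83.4 and 82.6 at the junction, 54.9, 40.7 and 36.8 in glomeruli and 57.0, 57.9 and 63.1 in medulla. The average difference of HS from Sham in limma, 0.27 ± 0.16, was not called (95% interval -0.06 to 0.60, adjusted p = 0.979). It rests on 1 run: without HS run 3 it was 0.00. Without Sham run 3, which drops the plate term, it was 0.46 (adjusted p = 0.0075), with cortex at 0.60 (adjusted p = 0.0160). In that fit all HS ROIs lay on plate E and all Sham ROIs on plate C, so injury and plate cannot be told apart. HS run 3 averaged 124 in cortex, against 64.0 and 56.6 in HS runs 1 and 2, and 154 at the junction, against 106 and 95.6. Its cortical ROIs held an estimated 1105841 to 1872453 reads, against 187967 to 510154 in the other HS runs, and 4766 in summed proximal tubule signal, against 1426 and 998. The part of these differences in the Klf15 values was not tested.

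**Figure D3:**
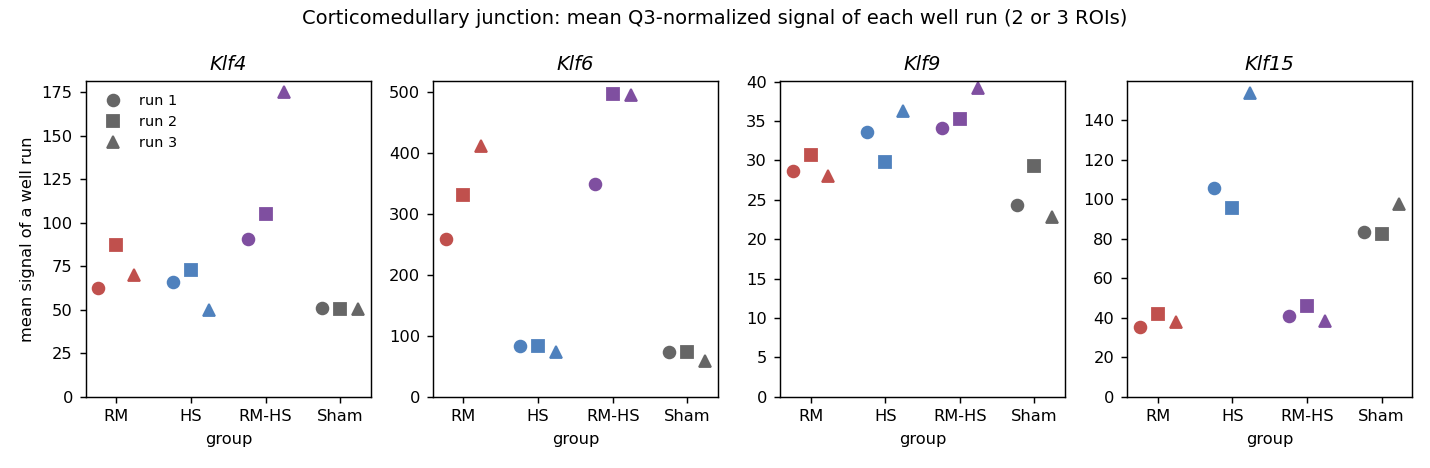
Mean upper-quartile-normalized signal of each run of wells at the corticomedullary junction (linear axis from 0; circles, squares and triangles are runs 1, 2 and 3) for the 4 genes, with RM, HS, RM-HS and Sham from left to right. RM-HS run 3 holds the highest Klf4 mean, 175, and HS run 3 the highest Klf15 mean, 154.

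Klf4 rose at the junction of RM-HS kidneys and was called in no other area of any injury. Its junction signal was 55.8, 69.3 and 109.6 (lowest, median, highest) in RM, 45.5, 68.0 and 79.2 in HS and 88.2, 106 and 228 in RM-HS, against 45.2, 49.1 and 57.7 in Sham. All RM-HS ROIs lay above all HS and all Sham ROIs, while RM and HS overlapped Sham. In limma the RM-HS difference was 1.21 ± 0.19 (2.32-fold, adjusted p = 1.08e-07), against 0.50 ± 0.19 in RM (adjusted p = 0.109) and 0.30 ± 0.21 in HS (adjusted p = 1.0). The RM-HS call at the junction stood under all alternatives run, and the RM difference was called under 3 of them and without HS run 3 (adjusted p = 0.0303).

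Klf4 was not called in cortex, glomeruli or medulla in any injury. Median signal was 40.8 in RM, 39.5 in HS, 49.9 in RM-HS and 43.8 in Sham cortex. Glomeruli had medians of 65.9, 45.2, 48.2 and 54.5, and medulla 52.3, 51.2, 58.8 and 57.8, in the same order of groups. No injury separated from Sham in these areas. Klf4 in cortex lay near background, at 1.54 times the negative probe in RM, 1.64 in HS, 1.67 in RM-HS and 1.70 in Sham. Only 0, 1, 2 and 2 of 9 cortical ROIs, in that order, were over 2 times it, so a change there may not have shown. Averaged over areas, Klf4 differed from Sham by 0.13 ± 0.13 in RM, -0.02 ± 0.17 in HS and 0.32 ± 0.14 in RM-HS (adjusted p = 0.188), none called; without HS run 3 the RM-HS value passed (adjusted p = 0.0139). The RM-HS difference varied between areas (F test, adjusted p = 4.69e-07), and in RM this test did not pass (adjusted p = 0.0773; 0.0436 without HS run 2). Of 15 neighbouring pairs in the order of the 16 means, only RM-HS junction (126 ± 49.0, SD, n = 8) over RM junction (73.7 ± 16.4, n = 8) were apart by more than the pooled SD.

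Klf9 lay near background and showed only small shifts. Its mean was 1.07 to 2.06 times the negative probe over the 16 groups and areas, and 31 of 32 RM-HS ROIs exceeded the Sham mean for their area, as did 26 of 34 in RM and 24 of 29 in HS. Median signal was 30.2 in RM, 36.6 in HS, 35.5 in RM-HS and 27.5 in Sham cortex, and 29.1, 32.7, 36.4 and 25.6 at the junction. In glomeruli the medians were 23.6, 34.9, 32.7 and 20.8, and in medulla 24.8, 35.8, 34.1 and 23.6, in the same order of groups. No pair of neighbours among the 16 means was apart by more than the pooled SD.

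Averaged over areas, Klf9 rose in RM-HS by 0.50 ± 0.15 (1.41-fold, adjusted p = 0.0267), with no single area called. With quantile normalization the junction (0.84, adjusted p = 8.92e-05, against 0.52), cortex (0.47, adjusted p = 0.0476) and medulla (0.54, adjusted p = 0.0222) were called. Medulla also passed on plate C alone and with medulla fitted alone (0.53 in both), and glomeruli on plate C alone (0.67) and without the block of runs (0.59). The call on the average ended without RM-HS run 2 (0.47, adjusted p = 0.14), RM-HS run 3 (0.42, adjusted p = 0.304) or Sham run 1 (0.36, adjusted p = 0.83). RM differed by 0.15 ± 0.15 (adjusted p = 0.599) and HS by 0.44 ± 0.20 (adjusted p = 0.824). Without Sham run 3 the HS difference was 0.45 (limma, adjusted p = 0.0412), in a fit with no plate term where injury and plate cannot be told apart. Klf9 passed the filter on low values mostly through HS, so its HS tests are not independent of the filter. Klf9 in glomeruli passed for HS without HS run 2 (0.73, adjusted p = 0.0408), and for RM-HS without HS run 3 (0.58, adjusted p = 0.0318) or RM-HS run 1 (0.77, adjusted p = 0.0373). The shift did not differ detectably between areas in RM, HS or RM-HS (F tests, adjusted p = 0.998, 0.942 and 0.96).

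RM-HS was next compared with each injury alone, which asks what the combination adds. Against RM, 1 of the 4 genes was called at the junction (Klf4, 0.408% of all genes called) and 0 in cortex (0%), glomeruli (1.89%), medulla (0.589%) and the average (0.227%). In limma 0, 1, 1 and 1 of the 4 had an unadjusted p under 0.05 in these last comparisons. Of all 8827 genes 98, 1458, 397 and 432 did. The Klf4 difference of 0.71 ± 0.18 (adjusted p = 0.0319) was 0.40 (adjusted p = 1.0) without RM-HS run 3, which averaged 175, against 90.5 and 105 in RM-HS runs 1 and 2. The call was also lost, with values of 0.59, 0.70, 0.78 and 0.71, without RM run 1, RM run 3, RM-HS run 2 and Sham run 1 (adjusted p = 0.0513 to 0.646). With quantile normalization (0.55, adjusted p = 0.101), scaling to the negative probe (0.70, adjusted p = 0.385) and means of runs (0.70, adjusted p = 0.439) it did not pass either. Klf6 differed by 0.02 ± 0.13 (95% interval -0.25 to 0.28) and Klf15 by -0.01 ± 0.12 (-0.24 to 0.22) on average. Klf9 was 0.35 ± 0.14 higher on average (adjusted p = 0.662), called without HS run 3 (adjusted p = 0.0331), and its RM-HS medulla ROIs lay wholly above those of RM, as for 0.759% of all genes.

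Against HS, 1 of the 4 was called in RM-HS on average (Klf6, 1.09% of all genes), 3 at the junction (Klf4, Klf6 and Klf15, 1.3%), 1 in medulla (Klf6, 1.98%), 1 in cortex (Klf6, 0.464%) and 0 in glomeruli (2.95%). In glomeruli 0 of the 4 and 1572 of the 8827 genes had an unadjusted p under 0.05 in limma. Klf6 was higher in RM-HS by 1.36 ± 0.24 on average (adjusted p = 7.69e-05), by 2.18 ± 0.28 at the junction (adjusted p = 1.62e-09), by 1.60 ± 0.29 in medulla (adjusted p = 4.26e-05) and by 1.38 ± 0.27 in cortex (adjusted p = 0.0012). RM-HS lay wholly above HS in these 3 areas, as did 4.57% of all genes in medulla, 1.62% at the junction and 0.578% in cortex. The cortical call ended without RM-HS run 3 (1.17, adjusted p = 0.0765), with scaling to the negative probe (1.19, adjusted p = 0.593), over means of runs (1.38, adjusted p = 1.0) and with cortex fitted alone (1.40, adjusted p = 0.0727). The medullary call ended with scaling to the negative probe (1.28, adjusted p = 0.136) and over means of runs (1.59, adjusted p = 0.171). In glomeruli Klf6 differed by 0.29 ± 0.30 (adjusted p = 0.661), and by 0.85 without HS run 3 (adjusted p = 0.0124). Klf15 was lower at the junction by -1.30 ± 0.24 (adjusted p = 9.11e-05), with RM-HS wholly below HS there and in medulla, as were 0.419% and 0.952% of all genes. Its average difference of -0.72 ± 0.21 did not pass (adjusted p = 0.0663) but did without HS run 1 (-0.84, adjusted p = 0.0297), HS run 2 (-0.86, adjusted p = 0.0218), HS run 3 (-0.45, adjusted p = 0.0174) or Sham run 3 (-0.91, adjusted p = 1.39e-10). Leaving out Sham run 3 removes all Sham ROIs of plate E and drops the plate term, so injury and plate cannot be told apart in that fit. In it the differences in cortex (-0.71), glomeruli (-0.62) and medulla (-0.83) were called as well. Medulla was also called with quantile normalization (-0.64) and with medulla fitted alone (-0.74). Klf4 was higher at the junction by 0.91 ± 0.25 (adjusted p = 0.0360), and 0.60 without RM-HS run 3 (adjusted p = 0.765). The value stayed at 0.91 to 0.97, with the call lost, without HS run 1, any RM run, RM-HS run 2, Sham run 1 or Sham run 2 (adjusted p = 0.0523 to 0.172). The call was also lost with quantile normalization (0.69, adjusted p = 0.0523), scaling to the negative probe (0.88, adjusted p = 0.48), means of runs (0.89, adjusted p = 0.27) and the junction fitted alone (0.92, adjusted p = 0.32). HS lay on plate E and RM-HS on plate C, so this comparison relies on the plate term, which is set by the Sham ROIs. The combined effect did not differ detectably from the sum of both injuries for any of the 4 genes. In limma 0 of 4 were called, where 0.125% of all genes were. An unadjusted p under 0.05 was found for 0 of the 4 and for 451 of the 8827 genes. The difference of the combined effect from that sum was -0.44 ± 0.23 for Klf6 (95% interval -0.90 to 0.02), -0.28 ± 0.20 for Klf15, 0.21 ± 0.21 for Klf4 and -0.09 ± 0.24 for Klf9.

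Areas were also compared within Sham. Klf15 was higher at the junction than in cortex by 0.67 ± 0.14 (adjusted p = 7.68e-05), the only one of the 4 genes called there (7.91% of all genes). Glomeruli differed from cortex for Klf15 (-0.40 ± 0.14, adjusted p = 0.0147) and Klf9 (-0.42 ± 0.16, adjusted p = 0.0317), where 38.4% of all genes were called and the median gene lay 0.27 lower. Both signs turned with the scaling: with signal scaled to the negative probe the Klf15 difference was 0.091 and the Klf9 difference 0.061, and with quantile normalization that of Klf9 was 0.40 and that of Klf15 -0.23, the second not called. Over means of runs neither was called (adjusted p = 0.138 for Klf15 and 0.163 for Klf9). In Sham, Klf9 lay at background in both areas, at 1.07 times the negative probe in cortex and 1.18 in glomeruli, with 0 of 9 ROIs over 2 times it in each. The negative probe itself had a median of 27.6 in Sham cortex and 17.3 in Sham glomeruli. Klf4 was called higher in glomeruli with quantile normalization (0.49) and negative probe scaling (0.73), and Klf6 with negative probe scaling (0.72). Of the 8827 genes 971 and 2161 were called higher in glomeruli under these 2 scalings, against 245 in the main fit. The Klf15 call also ended without Sham run 2 (-0.35, adjusted p = 0.108) or Sham run 3 (-0.37, adjusted p = 0.0514), and the Klf9 call without Sham run 1 (-0.20, adjusted p = 0.445). Medulla differed from cortex for 0 of the 4 genes in limma (11.7% of all genes called), with Klf4 at 0.35 ± 0.14, Klf6 at 0.33 ± 0.16 and Klf15 at 0.12 ± 0.14. At an unadjusted p under 0.05 were 2 of the 4 and 2035 of the 8827 genes. The medulla result too changed with the scaling. Scaled to the negative probe, 3 of the 4 were called higher in medulla, Klf4 by 0.85 (adjusted p = 1.18e-05), Klf6 by 0.84 (adjusted p = 0.000191) and Klf15 by 0.63 (adjusted p = 0.00062), and with quantile normalization Klf4 was, by 0.50 (adjusted p = 0.00301). The share of all genes called in medulla under these scalings was not counted, so these calls cannot be set apart from a shift of all genes.

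Of 22 other KLF and SP genes, which share the same zinc finger family, 14 were in the table and all 14 were tested. For this and the lists that follow, the share of all genes called higher on the average over areas was 7.52% in RM, 0.125% in HS and 5.99% in RM-HS, and the share called lower was 0.782%, 0.0453% and 0.838%. The single calls of the family in RM and in RM-HS (1 of 14 each) are near these shares. In RM against Sham, 1 rose (Sp3, 0.41 ± 0.13, adjusted p = 0.0301) and 0 fell, with a list median of 0.02 against -0.06 over all genes. In HS 0 of 14 were called in limma, Sp3 having the lowest p (0.47 ± 0.17, unadjusted p = 0.00591, adjusted p = 0.548), with a median of 0.14 against -0.03. In RM-HS 1 rose (Klf13, 0.44 ± 0.14, adjusted p = 0.0275), with a median of 0.04 against -0.02. Leaving out 1 run moved these counts. Between 0 and 5 rose in RM (5 without HS run 3, and the count changed for every run but HS run 1, RM run 3, RM-HS run 1 and RM-HS run 2). In HS 0 to 2 rose, the 2 without HS run 3. In RM-HS 0 to 2 rose, the count changing without HS run 3, RM run 3, any RM-HS run, Sham run 1 or Sham run 2, and 1 fell without HS run 3. Single areas were looked at after their values were seen. Klf10, a gene induced by TGF-beta, rose at the junction in RM (0.53 ± 0.16, adjusted p = 0.0252) and RM-HS (0.83 ± 0.16, adjusted p = 4.65e-05). Klf3 rose in RM medulla (0.53), Klf13 (0.60) and Sp1 (0.76) rose in RM glomeruli, Sp2 (0.67) and Sp3 (1.11) rose in HS glomeruli, and Klf5 fell in RM-HS glomeruli (-0.79). Each of these comparisons tested the same 14 family genes. Of all genes 4.86% rose at the junction in RM and 5.15% in RM-HS, 4.84% in RM medulla, 10.1% in RM glomeruli and 3.97% in HS glomeruli. In RM-HS glomeruli 1.46% fell. In Sham, Klf2, an endothelial factor, was 0.89 higher in glomeruli and 0.49 higher in medulla than in cortex, where 2.78% and 6.39% of all genes were called higher. Glomeruli also differed from cortex for Klf7 (0.55, limma, adjusted p = 0.00153) and, in the other direction, Sp8 (-0.57, adjusted p = 0.00285). Of all genes 35.6% were called lower in glomeruli. Whether these family calls change with the scaling, as those of Klf9 and Klf15 did, was not examined.

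**Figure D4:**
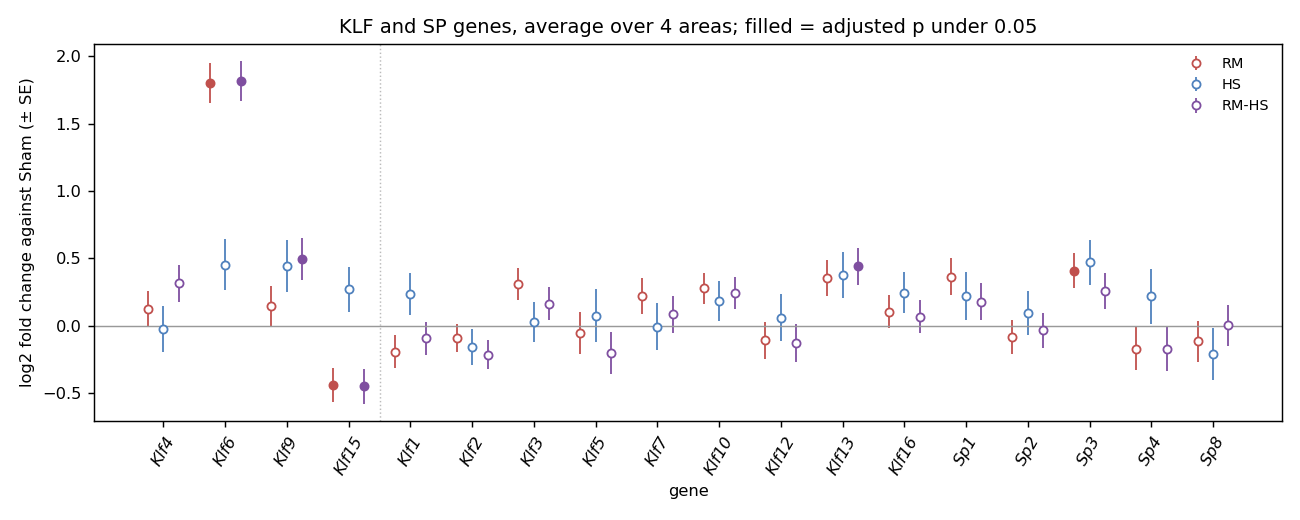
Log2 fold change against Sham, averaged over areas (bars are ± SE), of the 4 genes and the other KLF and SP genes tested, for RM, HS and RM-HS; filled symbols passed an adjusted p of 0.05 in limma. Klf6 stands at 1.80 in RM and 1.81 in RM-HS, and Sp3 in RM (0.41) and Klf13 in RM-HS (0.44) are the only other family genes with filled symbols beside Klf9 and Klf15.

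Genes of pathways in which these factors are known were counted as lists, each described by its counts and its median. Immediate early genes, transcribed within minutes of a stimulus, rose in RM for 13 of 20 tested (median 1.10 against -0.06 over all genes). Zfp36, which speeds the decay of cytokine mRNAs, rose by 2.07 ± 0.14, and the AP-1 subunits Fosl2 and Junb rose by 1.65 ± 0.13 and 1.68 ± 0.16. In RM-HS 14 of 20 rose (median 0.84), with Zfp36 at 2.10 ± 0.14, the antiproliferative gene Btg2 at 1.86 ± 0.16 and Fosl2 at 1.39 ± 0.13. In HS 1 of 20 rose, the phosphatase gene Dusp1 (0.80 ± 0.17, adjusted p = 0.00551), with a median of 0.14, and the count lay between 1 and 4 when a run was left out, moving without HS run 2, HS run 3 or Sham run 3.

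Glucocorticoid-induced genes, a class to which Klf9 and Klf15 belong, rose in RM for 6 of 15 (median 0.38), in HS for 6 of 15 (0.42) and in RM-HS for 11 of 15 (0.56), and none fell. The metallothionein gene Mt2 rose by 2.41 ± 0.17 in RM, 1.32 ± 0.22 in HS and 2.63 ± 0.17 in RM-HS. Igfbp1, which binds insulin-like growth factors, rose by 1.47 ± 0.20, 1.52 ± 0.26 and 2.12 ± 0.20 in the same order. Tsc22d3, the glucocorticoid-induced leucine zipper, rose by 1.51 ± 0.21 in HS, and Mt1 by 1.47 ± 0.13 in RM and 1.52 ± 0.14 in RM-HS. Without HS run 3 the RM count was 11 with 1 gene falling (1 also fell without HS run 2), and the RM-HS count lay between 4 and 12, at 4 without Sham run 1; RM-HS run 3 also moved it by over 1.5 times. In HS 6 or 7 rose whichever run was left out, and 1 fell without HS run 3.

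Counts of clock genes were small: of 12 tested 2 rose in RM, where 7.52% of all genes did, the repressors Nfil3 (1.28 ± 0.17) and Bhlhe40 (0.89 ± 0.15). In RM-HS 3 rose, Bhlhe40 (1.07 ± 0.15), Nr1d1 (0.94 ± 0.17), which represses the clock gene Arntl, and Nfil3 (0.85 ± 0.17). In HS limma called 0, Cry1 having the lowest p (0.32 ± 0.15, unadjusted p = 0.0332). List medians were 0.07, 0.05 and 0.08 in RM, HS and RM-HS. The other counts of clock genes changed without HS run 3, to 2 falling in RM and 1 rising in HS.

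Branched-chain amino acid breakdown genes were not called: 0 of 15 in RM, HS and RM-HS, with list medians of 0.03, -0.06 and 0.12. Their lowest p values belonged to Acat1, the mitochondrial thiolase, in RM (0.35 ± 0.17, unadjusted p = 0.0367) and RM-HS (0.50 ± 0.17, unadjusted p = 0.00356, adjusted p = 0.0515), and to Hibch, of valine breakdown, in HS (0.32 ± 0.16, unadjusted p = 0.0521). Leaving out HS run 3 gave 2 rises in RM, 6 falls in HS and 2 rises in RM-HS. Counts of this list also moved without Sham run 2 in RM, without Sham run 3 in HS, and without HS run 2, RM-HS run 1 or Sham run 2 in RM-HS.

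Gluconeogenesis and amino acid breakdown genes, of which Klf15 controls several in mouse liver, gave 1 rise and 1 fall among 10 tested in RM: Got2, the mitochondrial aspartate aminotransferase, rose by 0.59 ± 0.14, and Prodh, which starts proline breakdown, fell by 0.49 ± 0.14. In RM-HS 2 rose, Got2 (0.51 ± 0.14) and the glutamate dehydrogenase gene Glud1 (0.61 ± 0.17). In HS 0 were called by limma, with the lowest p for G6pc, of glucose release (0.82 ± 0.26, unadjusted p = 0.00154, adjusted p = 0.301). List medians were 0.21, -0.01 and 0.26 in RM, HS and RM-HS. Between 0 and 4 rose in RM and 0 and 5 in RM-HS with a run left out, the highest count without HS run 3 and the lowest without Sham run 1. The RM counts also moved without HS run 2, RM run 3 or Sham run 2, and the RM-HS count without RM-HS run 2, RM-HS run 3 or Sham run 2. Without HS run 3, 3 fell in HS and 2 in RM-HS, and up to 2 rose in HS without HS run 1 or Sham run 3.

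Among 6 tested genes reported as KLF6 targets, 2 rose in RM: Atf3, a stress-induced transcription factor (1.51 ± 0.18), which is on the immediate early list too, and the cell cycle inhibitor gene Cdkn1a (0.66 ± 0.12). In RM-HS 3 rose, Atf3 (1.53 ± 0.18), Cdkn1a (0.67 ± 0.13) and the urokinase gene Plau (0.76 ± 0.20). In HS limma called 0, with Cdkn1a at 0.44 ± 0.16 (unadjusted p = 0.0062, adjusted p = 0.562). List medians were 0.31, 0.03 and 0.38 in RM, HS and RM-HS. Without HS run 3, 1 rose in HS.

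Finally, the 3 genes with the most similar pattern to each KLF gene were taken by Pearson r over the 16 means of group and area. For Klf6 these were Rhob, a small GTPase gene (r = 0.96), Zfp36 (0.95) and Tgif1, a homeobox repressor (0.93). Rhob averaged 7.50 in RM, 6.41 in HS and 7.51 in RM-HS, against 6.43 in Sham, and Zfp36 averaged 7.87, 6.48 and 7.97, against 5.89, as log2 signal. For Klf15 they were Dcaf8 (0.87) and Dcaf11 (0.86), of ubiquitin ligase complexes, and the kinase gene Nuak2 (0.85). Nuak2 averaged 4.92 in RM, 5.37 in HS and 4.86 in RM-HS, against 5.25 in Sham. Klf4 was nearest to Gpat3, of triglyceride synthesis (0.84), the actin gene Actb (0.83) and Cryab, a small heat shock protein gene (0.83), and Klf9 to Flii (0.87), Zbed6 (0.85) and Vps4b (0.84). The 16 means share ROIs across genes, and these values are descriptions of likeness. Among the 4 genes themselves, r over the 16 means was -0.63 between Klf6 and Klf15 and 0.41 between Klf4 and Klf6. Within groups and areas, over 131 ROIs, these were 0.18 and 0.16.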

How the data were processed

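GeoMx spatial profiles of 132 ROIs were analysed from 1 table. Its signal values were deposited after upper-quartile (Q3) normalization by the authors, per the file headers; no source used here names the software. Area and group were read from the sample titles. In limma 3.58.1 (R 4.3.3, statmod 1.5.0), log2(signal + 1) of 131 ROIs was fitted with 16 means of group and area, a plate term, and the run of wells as a random block (consensus correlation 0.132), with moderated variances and a trend, and adjusted p-values over 8827 genes. Genes had to exceed 2 times the negative probe in 10% of ROIs (444 were left out). The plate term was called for 52 genes and for none of the 4 members (adjusted p = 0.589 to 0.994). The fit was also tried on data simulated from the same kind of model, with no plate effect and no outlying run, so that check does not bear on either.

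The members and gene lists were chosen with earlier results of these data known. Genes named were the 4 members, the 3 genes most like each, and of each list up to 3 called genes with the lowest p in each injury's average (with no call, the 1 with the lowest p). Alternatives were a pseudocount of 5, no filter or a 50% filter (4233 genes), quantile normalization, scaling to the negative probe, no plate term, no block, each plate alone, the ROI of plate A kept, each area alone, means per run and area, and each run left out in turn. Counts of list members with a run left out were added after seeing the data. For the glucocorticoid receptor a half-site was searched in place of the full element, a change made after an earlier search had found the full element in none of the 4 promoters. Mouse probes on rat tissue may bind with unequal efficiency, so levels were not compared between genes.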

Additional observations from a re-analysis of the deposited data

Results flagged for a closer look

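Each of the 4 genes was searched for a single ROI far from the rest of its group and area (Dixon's criterion at 95%), in 64 combinations of which chance would mark about 1 in 20. Klf15 marked 3 ROIs. One glomerular ROI of HS run 3 had a signal of 122, against 51.7 for the next highest. At the junction, an ROI of RM-HS run 2 had 56.5, next to 44.1, and in Sham medulla an ROI of run 2 had 75.4, next to 59.97. Klf4 in RM-HS medulla had a low ROI of 42.6 in RM-HS run 2, below 54.3. Klf9 in Sham cortex had a high ROI of 33.0 in Sham run 2, above 27.9.

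Effects that differed between areas were those of Klf6 in RM (F test in limma, adjusted p = 3.71e-07) and in RM-HS (adjusted p = 1.26e-10), of Klf15 in RM (adjusted p = 6.57e-06) and in RM-HS (adjusted p = 0.00311), and of Klf4 in RM-HS (adjusted p = 4.69e-07). For Klf6 the glomeruli gave the smallest rise, 0.82 in RM and 0.59 in RM-HS. For Klf15 the fall was deepest at the junction, where Sham lay furthest above the negative probe, and for Klf4 only the junction was called. In Sham cortex Klf15 averaged 2.16 times the negative probe and Klf4 1.70 times, near background, which limits these comparisons between areas.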

How the results depend on the processing

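Klf6 kept its direction and its call against Sham, averaged over areas, in RM and RM-HS under every alternative run. Against HS, Klf6 in RM-HS was 1.20 with scaling to the negative probe and 1.44 over means per run, both short of the threshold. Without the block of runs, differences passed for Klf4 in RM-HS (0.32), Klf6 in HS (0.43), Klf9 in HS (0.42), Klf9 in RM-HS over RM (0.35) and Klf15 in RM-HS over HS (-0.68); on plate C alone Klf4 in RM-HS (0.32) and Klf9 in RM-HS over RM (0.35) passed. The HS tests of Klf9 are not independent of the filter on low values. Klf9 in RM-HS lost its call with negative probe scaling (0.41) and run means (0.45). Klf15 lost its call in RM with negative probe scaling (-0.35) and run means (-0.44) and in RM-HS with run means (-0.44), and passed in HS with no plate term (0.40) and in RM-HS over HS with quantile normalization (-0.66) and no plate term (-0.91). In Sham glomeruli against cortex, Klf9 turned to 0.40 with quantile normalization and 0.061 with negative probe scaling, and Klf15 to 0.091 with negative probe scaling. The cause was not tested.

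With 1 run left out, Klf15 ranged from 0.0039 to 0.46 in HS, -0.46 to -0.41 in RM, -0.51 to -0.41 in RM-HS and -0.91 to -0.45 in RM-HS over HS. Klf4 ranged from 0.31 to 0.35 in RM-HS, and Klf9 from 0.24 to 0.56 in HS, 0.36 to 0.64 in RM-HS and 0.27 to 0.43 in RM-HS over RM. Genes called ranged from 294 to 2232 in RM, 12 to 1017 in HS and 193 to 1553 in RM-HS, against 733, 15 and 603 with all runs. The 1017 in HS, like the Klf15 values of 0.46 in HS and -0.91 in RM-HS over HS, came without Sham run 3. Injury and plate cannot be told apart in that fit. The RM count was 1530 with quantile normalization, 2967 without the block, 2548 on plate C alone and 426 over run means. The HS count was 27 with quantile normalization, 5 with negative probe scaling, 320 with no plate term, 445 without the block, 2 over run means and 0 on plate E alone (limma; 74 at an unadjusted p under 0.05). The RM-HS count was 1346 with quantile normalization, 236 with negative probe scaling, 1984 without the block, 1787 on plate C alone and 290 over run means. Higher and lower calls were 664 and 69 in RM, which became 966 and 564 with quantile normalization; in RM-HS 529 and 74 became 814 and 532, and in HS 11 and 4 became 15 and 12. Scaling to the negative probe moved the median gene in RM-HS to -0.11.

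Values of the 4 genes in glomeruli rest on the fewest reads, and the part of depth in the glomerular results was not tested. No paired analysis was possible because the labels give the groups no shared replicate numbers; areas of 1 run were tied by the block of runs in limma. The count test (edgeR) also intended was not run, since whole reads could not be verified in most ROIs, and intervals do not cover animals, which the labels do not tie to ROIs.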
